A study of Mus musculus with 29 samples.

Results

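The 40 genes described here carry a cell through mitosis, and they include Pttg1, which encodes securin. They were listed by gene symbol, with earlier results of these data known but no threshold on a measured value, and were looked up among 47729 gene identifiers in the crypt files, 49585 in the tissue files and 52550 in the organoid files. By role, 8 drive or time mitotic entry, 4 form the chromosomal passenger complex, 5 belong to the spindle checkpoint, and 3 belong to the switch into anaphase. Another 5 build the kinetochore or mark the centromere, 7 shape the spindle or the centrioles, 6 act in cytokinesis, and 2 (Mki67 and Top2a) organise chromosomes. All 40 symbols were found in each set of files, and all 40 passed the filter on low counts in each fit.

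Poly(A) RNA of mouse intestine was sequenced as strand-specific libraries to compare mice and organoids with and without a working H2B gene, alone or together with p53. H2B is read here as Rnaseh2b, a subunit of ribonuclease H2, because the series concerns the repair of ribonucleotides in DNA. The 29 libraries form 8 groups, all of strain C57BL/6. Comparisons were made within 1 of 3 sets (crypts, tissue or organoids), except for 1 test of the H2BdIEC effect between organoids and crypts.

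The crypt set held epithelial crypts of mice aged 52 weeks, with genotype H2B flox/flox (control, n = 4) or H2BdIEC (n = 4). The tissue set held tumor tissue and adjacent normal tissue of the same 4 H2B/p53dIEC mice, numbered 1349, 1323, 1322 and 1319, and tissue of 4 control mice of genotype H2B/p53flox/flox, numbered 1315, 1316, 1320 and 1321, which also carries the label of adjacent normal tissue. The age of the tissue mice is not given. The organoid set held 3 control, 3 H2BdIEC and 3 H2B/p53dIEC libraries, the last written here as H2Bp53dIEC. The organoid controls are labelled H2B/p53flox/flox, while the series design names the organoid controls H2Bfl/fl. Their titles carry the letters WT. No treatment is named, and the genotype labels of the controls in each set name floxed alleles. The labels name no Cre driver. No label says that the organoid cultures came from different animals; their p-values therefore describe how far these cultures varied, and that variation could be technical. Control and H2BdIEC organoids share a title prefix that H2Bp53dIEC organoids lack, so for the latter the culture set and the genotype cannot be told apart.

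As background, cyclin-dependent kinase 1 with cyclins A2 and B starts mitosis, and the polo-like and aurora kinases then build the spindle. The checkpoint proteins hold back Cdc20, the activator of the anaphase-promoting complex, until every kinetochore is attached. Cdc20 and that complex then mark cyclin B and securin for destruction. Securin is the inhibitor of separase, the protease that opens cohesin, so its loss lets sister chromatids part. In the intestine dividing cells sit in the crypts, and the villus cells no longer divide.

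Total gene counts per library ran from 15545059 to 25913155 in crypts, from 401365 to 41504298 in tissue and from 5774771 to 21386586 in organoids. The library of tissue control 1320 was the shallowest at 401365 counts, and organoid H2BdIEC A was the shallowest of its set at 5774771. Rnaseh2b, the targeted gene, had a mean of 2.505 counts-per-million units (CPM, read counts scaled to the size of each library) in H2BdIEC crypts against 10.6 in control crypts. In tissue it had 4.12 CPM in adjacent and 4.39 in tumor libraries against 16.1 in controls. In organoids it had 5.83 CPM in H2BdIEC and 1.65 in H2Bp53dIEC against 16.6 in controls. Trp53 had 11.1 CPM in H2Bp53dIEC organoids against 107 in controls. In tissue it had 21.3 CPM in adjacent and 19.8 in tumor libraries against 44.8 in controls. Rnaseh2b was also lower in H2Bp53dIEC than in H2BdIEC organoids (log2 fold change -1.82 ± 0.23, SE), so these groups differ in more than Trp53. Epithelial markers were high in every group, with summed levels of at least 4838.0 CPM over 6 genes, and fibroblast, smooth muscle, leukocyte and endothelial sums in organoids stayed at or below 11.8 CPM each.

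Pttg1 (ENSMUSG00000020415) lies on chromosome 11 at 43420250 to 43426251, on the minus strand of GRCm38, with 2000 exonic bases in the GENCODE M21 annotation. None of its 50-base words occurs in a transcript of another gene. Several members are less certain in this respect. The share of 50-base words found in transcripts of other genes was 42.1% for Ccnb1, whose copies are processed pseudogenes, 31.2% for Kif20a, which overlaps Cdc23 on the opposite strand, and 22.2% for Cdc25c. It was 17.8% for Ube2c, 16.2% for Kif4, 15.9% for Ccna2, 11.6% for Cdc20 and 10.9% for Plk1, and under 6% for the other 32 members.

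Many mitosis genes share promoter letters known as CHR (TTTGAA) and the CCAAT box (CCAAT). In RefSeq windows of 300 bases, 250 before and 50 after each start (GRCm38.p6), 34 of the 40 members matched a window. Searched on both strands, TTTGAA was in the windows of 24 of these 34 members (70.6%) against 17.9% of all 32851 windows. CCAAT was also in 24 of 34 (70.6%), against 37.4% of all windows, and 20 of 34 (58.8%) held both, against 6.95%. The 250 bases before the start are shown for Ccnb2 and Top2a, which hold both motifs and rose in organoids lacking H2B and p53, and for Birc5 and Mad2l1, which hold neither and also rose in a comparison below. Capitals mark TTTGAA and CCAAT, read on either strand. Ccnb2 is at chr9:70421555-70421804, minus strand, Top2a at chr11:99024190-99024439, minus strand, Birc5 at chr11:117848987-117849236, plus strand, and Mad2l1 at chr6:66534971-66535220, plus strand.
Ccnb2: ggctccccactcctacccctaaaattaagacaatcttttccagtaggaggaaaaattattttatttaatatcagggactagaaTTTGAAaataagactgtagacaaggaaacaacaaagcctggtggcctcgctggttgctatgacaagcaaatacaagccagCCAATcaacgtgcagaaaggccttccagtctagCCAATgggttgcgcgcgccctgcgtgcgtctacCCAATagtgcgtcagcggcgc
Top2a: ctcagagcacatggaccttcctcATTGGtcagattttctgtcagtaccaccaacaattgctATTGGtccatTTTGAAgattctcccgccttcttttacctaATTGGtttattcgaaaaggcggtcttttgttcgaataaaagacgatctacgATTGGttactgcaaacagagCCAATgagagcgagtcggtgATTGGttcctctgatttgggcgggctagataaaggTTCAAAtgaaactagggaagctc
Birc5: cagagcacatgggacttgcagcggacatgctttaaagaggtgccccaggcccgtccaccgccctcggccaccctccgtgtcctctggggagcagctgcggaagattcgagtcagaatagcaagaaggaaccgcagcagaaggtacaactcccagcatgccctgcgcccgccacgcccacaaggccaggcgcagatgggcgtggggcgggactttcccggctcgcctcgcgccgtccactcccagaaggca
Mad2l1: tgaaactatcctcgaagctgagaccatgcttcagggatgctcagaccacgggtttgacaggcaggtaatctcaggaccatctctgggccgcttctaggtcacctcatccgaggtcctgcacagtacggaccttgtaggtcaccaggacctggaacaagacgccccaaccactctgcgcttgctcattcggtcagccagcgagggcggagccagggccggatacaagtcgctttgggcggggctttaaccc
The Ccnb2 stretch holds 1 TTTGAA and 3 CCAAT, and that of Top2a holds 2 and 6. The Mad2l1 window ends at 66535270, before the start of that gene in GENCODE M21 (66535390), so bases next to that start were not searched. The Pttg1 window held neither motif. A match of letters is a description of the sequence and not a bound site.

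Members stood at different levels in the 3 sets. Per length, in CPM divided by the kilobases of exon (FPKM), the top members of control crypts were Mki67, the proliferation antigen, at 41.5 ± 6.55 (SD, n = 4) and Top2a, the topoisomerase that untangles chromosomes, at 32.4 ± 3.47 (SD, n = 4). In control organoids the top member was Ccna2 (cyclin A2) at 67.3 FPKM, and in tumors it was Cdc20 at 23.6 ± 9.21 FPKM (SD, n = 4). Pttg1 ranked 33 of 40 by mean FPKM in control crypts and 29 in H2BdIEC crypts. Its rank was 5 in adjacent and control tissue and 8 in tumors. In organoids it ranked 22 in controls, and 38 in both H2BdIEC and H2Bp53dIEC.

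**Figure D1:**
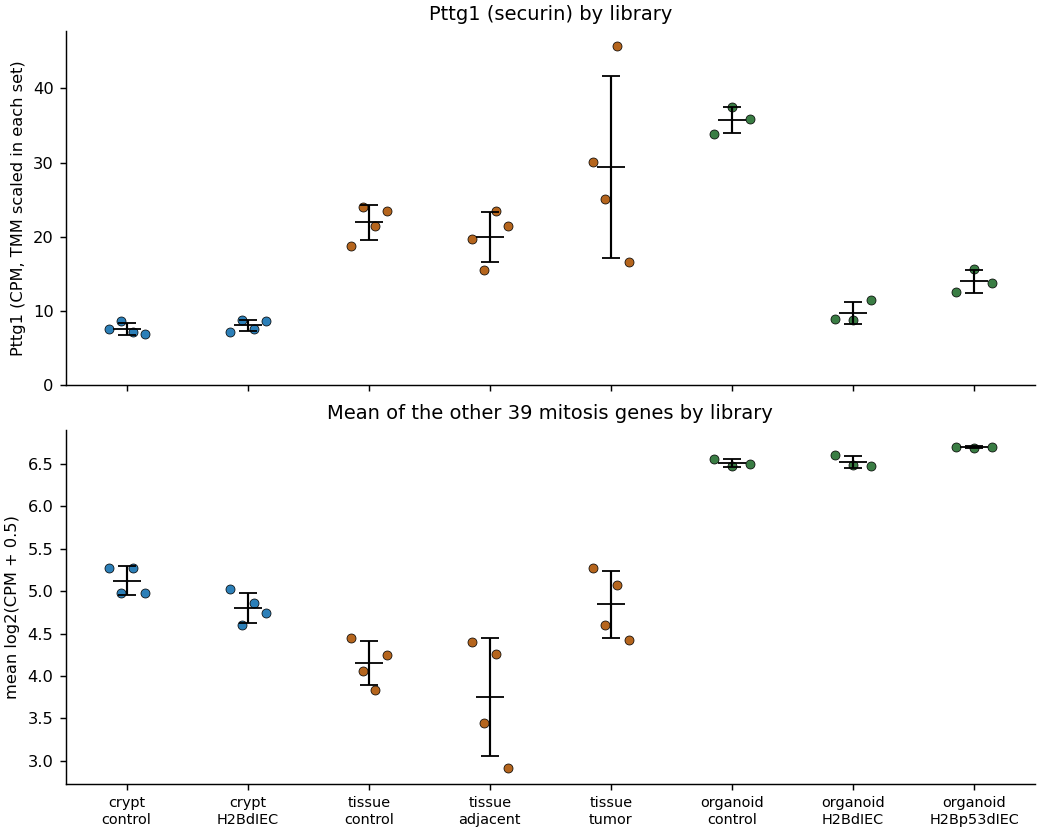
Pttg1 level (CPM, scaled in each set) in every library of the 8 groups above the mean log2(CPM + 0.5) of the other 39 members in the same libraries; each point is 1 library, the wide line a group mean and the bar its SD. The 3 control organoid libraries lie between 33.9 and 37.5 CPM and the other 6 organoid libraries between 8.71 and 15.6, while the mean of the other 39 members spans 6.47 to 6.70 on the log2 scale in all 9.

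In 52-week crypts, 4 of the 40 mitosis genes, Nusap1, Ndc80, Ccnb2 and Ccna2, were lower in H2BdIEC than in control mice (edgeR quasi-likelihood test, adjusted p under 0.05), and 36 did not pass the test. Negative log2 fold changes were found for 39 members, with a median of -0.28 against -0.01 over all genes tested. The 4 lower members are 10% of the list, against 4.87% of all genes called lower, and 0 members were called higher, against 5.16%. At an unadjusted p under 0.05 there were 17 lower (against 14.5% of all genes) and 0 higher members (against 14.3%). DESeq2 called 12 lower and 0 higher, against 6.41% and 7.4% of all genes. All libraries of H2BdIEC were below all controls for 9 members, a pattern seen in 10.3% of all genes. In bulk RNA, fewer dividing cells and less RNA per cell cannot be told apart.

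Nusap1, which bundles spindle microtubules near chromosomes, had 49.0, 35.7, 48.7 and 34.7 CPM in controls 1 to 4 and 31.9, 20.2, 21.6 and 25.1 in H2BdIEC 1 to 4. Its log2 fold change was -0.76 ± 0.17 (SE), with an edgeR adjusted p of 0.0202. Every H2BdIEC library was below every control. Ndc80, the outer kinetochore protein that grips microtubules, had 13.9, 10.3, 12.2 and 11.4 CPM in controls and 8.885, 7.49, 8.71 and 7.33 in H2BdIEC. Its change was -0.56 ± 0.13, with an adjusted p of 0.0272 (edgeR). These groups did not overlap either.

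Ccnb2 (cyclin B2) had 43.4, 31.6, 41.1 and 36.6 CPM in controls and 30.3, 18.7, 25.4 and 25.4 in H2BdIEC, a change of -0.61 ± 0.15 (edgeR adjusted p 0.0295). Ccna2, which acts in S phase and at entry into mitosis, had 107 (control 1), 85.0, 94.5 and 80.4 CPM in controls and 74.9, 39.4, 58.4 and 59.3 in H2BdIEC, a change of -0.66 ± 0.17 (edgeR adjusted p 0.0364). In both genes control 2 or 4 was the lowest control and H2BdIEC 2 the lowest library of all, with no overlap. Nuf2, the partner of Ndc80, had 18.2, 16.2, 18.1 and 16.1 CPM against 13.9, 10.03, 14.2 and 12.4, and missed the threshold (-0.44 ± 0.13, edgeR adjusted p 0.0513).

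Pttg1 was the sole member with a positive value. It had 7.575, 8.64, 7.09 and 6.87 CPM in controls and 7.10, 8.76, 7.55 and 8.575 in H2BdIEC, a log2 fold change of 0.08 ± 0.14 (edgeR adjusted p 0.726). The groups overlapped throughout. By role, 2 of the 8 entry genes, 1 of 5 kinetochore genes and 1 of 7 spindle genes passed the test, and 0 passed among the 4 passenger, 5 checkpoint, 3 anaphase, 6 cytokinesis and 2 chromosome genes. Mki67 (-0.49 ± 0.16, adjusted p 0.0716) and Top2a (-0.46 ± 0.14, adjusted p 0.0566) were among those not called.

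The count of 4 lower members rested on single libraries. It was 0 with control 1, control 3 or H2BdIEC 4 left out, and leaving out H2BdIEC 2 gave 1. Leaving out H2BdIEC 3 gave 2, and leaving out H2BdIEC 1 gave 9. It was 12 with DESeq2, 10 with no filter on low counts and 6 with upper-quartile factors, and the 4 genes above were among the calls each time. Other values moved with genotype in these libraries: summed stem cell markers were 438 to 734 CPM in H2BdIEC and 1105.0 to 1267.8 in controls, and summed Paneth markers 1962.4 to 3130.5 against 4401.2 to 11688.5. Among the stem cell markers Ascl2 (mean 5.03 CPM in H2BdIEC against 4.72 in controls) and Axin2 (88.55 against 101.2) overlapped between groups. The other markers of that list did not overlap. Summed enterocyte markers were 24055.5 to 33103.1 CPM in H2BdIEC against 15027.6 to 22038.5. Acinar pancreas markers summed to 6.98 to 355 CPM in H2BdIEC, highest in H2BdIEC 2, and to at most 0.36 in controls, where Prss2 was at 0. The mitochondrial share of counts was 9.295% to 15.7% in H2BdIEC and 4.33% to 10.4% in controls, the last in control 4. Their part in the result was not tested.

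Genes of the same pathway outside the 40 were read in crypts by the same test, which called 4.87% of all genes lower and 5.16% higher. Cohesin and separase genes had 0 higher and 4 lower of 16, led by Smc3 (-0.46 ± 0.09, adjusted p 0.0144) and Rad21 (-0.43 ± 0.10, adjusted p 0.0212), a core ring subunit and the subunit that separase cuts. Condensin had 0 higher and 2 lower of 8 (Smc4 and Ncapg2), other kinetochore genes 0 and 4 of 31 (led by Knl1 and Spc24), and S phase genes 0 and 2 of 30 (Tk1 and Tyms). Subunits and regulators of the anaphase-promoting complex had 1 higher, Fzr1 (0.37 ± 0.07, adjusted p 0.0151), and 1 lower, Anapc5 (-0.49 ± 0.11, adjusted p 0.0193), of 17. Other spindle and cytokinesis genes had 2 higher and 2 lower of 27. Genes of mitotic control had 2 higher and 0 lower of 23, and these were Gtse1 and Cdkn1a, the p53-responsive inhibitor p21, at 0.74 ± 0.11 (edgeR adjusted p 0.00374).

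**Figure D2:**
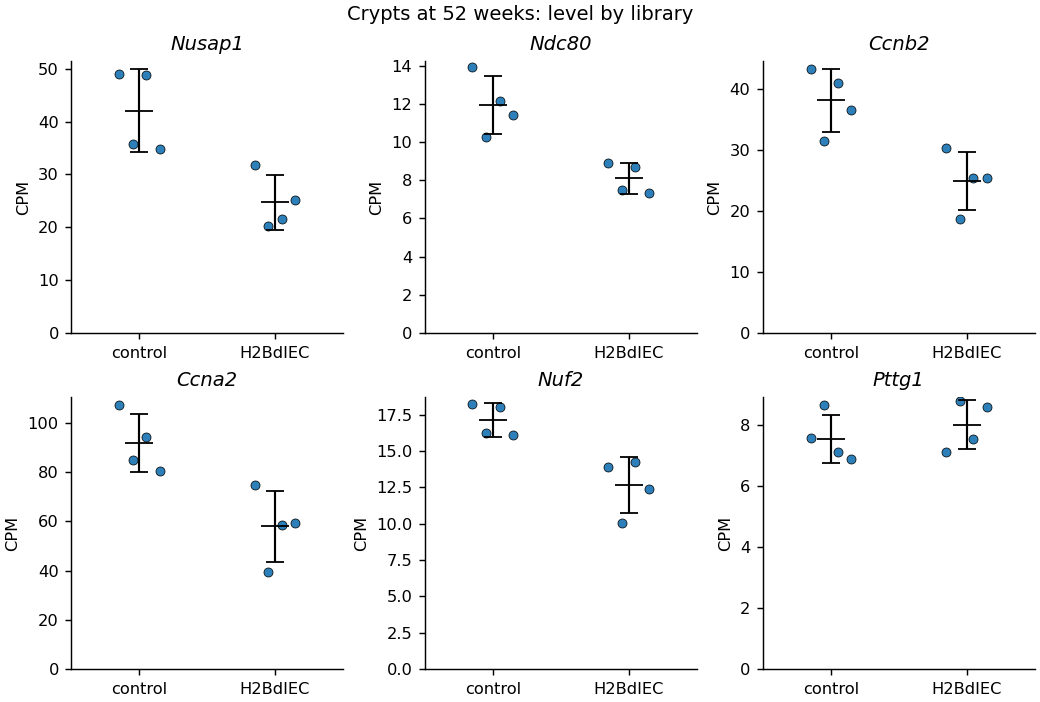
CPM in each of the 8 crypt libraries for the 5 members with the smallest p and for Pttg1; points are libraries, wide lines group means and bars SD. Nusap1 ranges from 20.2 to 31.9 CPM in H2BdIEC and from 34.7 to 49.0 in controls, whereas the Pttg1 points of the 2 groups lie within 6.87 to 8.76.

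In tumors, 23 of the 40 mitosis genes were called higher than in the adjacent tissue of the same mice (57.5% of the members, against 23.0% of all genes), with 0 lower (against 24.0%). All 40 members had a positive log2 fold change, with a median of 0.99. An unadjusted p under 0.05 gave 30 higher (26.8% of all genes) and 0 lower (27.4%), and DESeq2 gave 28 higher (20.5%) and 0 lower (18.2%). Every tumor library was above every adjacent library for 16 members, against 19.6% of all genes. With the mouse as a block, 34 members were called higher, against 18.2% of all genes, and the 23 were among them. Within mice, 38 members were higher in the tumor in 4 of 4 mice, and Pttg1 and Kif23 in 3 of 4. The share of all genes higher in 4 of 4 mice was not computed, so this count has no background beside it. The median log2 ratio over the 40 members was 0.87 in mouse 1349, 1.145 in 1323, 0.86 in 1322 and 1.48 in 1319.

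Cenpa, the histone variant that marks centromeres, had 19.0, 14.2, 18.1 and 7.63 CPM in the adjacent tissue of mice 1349, 1323, 1322 and 1319, and 56.4, 25.7, 47.8 and 31.3 in their tumors. The log2 fold change was 1.45 ± 0.30 (edgeR adjusted p 0.00211). No adjacent value reached the lowest tumor. Prc1, which bundles the midzone microtubules, had 21.3, 11.75, 22.8 and 7.54 CPM in adjacent tissue and 53.5, 32.45, 55.4 and 34.5 in tumors (1.47 ± 0.32, adjusted p 0.00249). Kif20a, a kinesin of the central spindle, had 12.4, 6.14, 13.25 and 5.885 CPM against 40.2, 22.1, 25.8 and 19.6 (1.51 ± 0.33, adjusted p 0.00251). In all 3 genes mouse 1319 had the lowest adjacent value.

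Mad2l1, the checkpoint protein that binds Cdc20, had 27.0, 11.5, 18.7 and 8.46 CPM in adjacent tissue and 56.5, 33.5, 61.2 and 33.1 in tumors (1.49 ± 0.34, edgeR adjusted p 0.00386). Tpx2, the activator of aurora A on the spindle, had 19.4, 10.1, 19.5 and 9.33 CPM against 48.75, 33.2, 50.4 and 24.35 (1.42 ± 0.34, adjusted p 0.00452). Both were higher in each tumor than in any adjacent library. Pttg1 had 19.6, 15.5, 23.4 and 21.4 CPM in adjacent tissue and 30.1, 25.1, 45.8 and 16.6 in tumors. It did not pass the test, with 0.55 ± 0.26 and an adjusted p of 0.0971 (0.204 with the mouse as a block). In mice 1349, 1323 and 1322 the tumor was higher, and in mouse 1319 it was lower. Without the tumor of mouse 1319 the edgeR adjusted p was 0.0180.

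Each role but the anaphase switch held called members. All were higher: 5 of 8 entry genes, led by Plk1 (1.33 ± 0.36) and Aurka (1.35 ± 0.38), 3 of 4 passenger genes, 4 of 5 checkpoint genes and 3 of 5 kinetochore genes. Of the spindle genes 3 of 7 were called, of the cytokinesis genes 3 of 6, and of the chromosome genes 2 of 2, Top2a (1.26 ± 0.35) and Mki67 (0.86 ± 0.26). In the anaphase switch 0 of 3 were called. Ube2c, the ubiquitin-conjugating enzyme of the anaphase-promoting complex, had 1.04 ± 0.42 (adjusted p 0.0580) and Cdc20 0.90 ± 0.37 (adjusted p 0.0654). Whether Pttg1 differed from the other members was not tested.

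The tissue samples differ in cell content, and these values stand beside the tumor result. Summed stem cell markers were 1086.0 to 1270.6 CPM in tumors against 156.5 to 373.3 in adjacent tissue. Of these 6 markers 5 were called higher, with Smoc2 and Lgr5 at the smallest p, while Olfm4 had a mean of 17.5 CPM in tumors against 26.9 and was not called. Summed enterocyte markers were 488.7 to 16526.5 CPM in tumors against 17745.5 to 102479.7, with 4 of 6 markers called lower. The mitochondrial share of counts was 0.881% to 1.845% in tumors against 2.175% to 3.68%. Smooth muscle sums were 282 to 809 CPM in tumors against 2825.5 to 4223.2, fibroblast sums 1285.2 to 10566.6 against 241 to 855, and epithelial sums 4838.0 to 8227.8 against 10119.2 to 15204.6. Adjacent tissue itself varied. The mean log2 CPM of the 40 members was 4.39 in mouse 1349 and 4.27 in 1322 but 3.46 in 1323 and 2.96 in 1319, and enterocyte sums were 18755.2, 17745.5, 102479.7 and 37676.5 CPM in the same order. Leaving out any 1 library gave 16 to 32 members called higher. Their part in the result was not tested.

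Beyond the 40, S phase genes had 19 higher and 1 lower of 30 in tumors against adjacent tissue, other spindle and cytokinesis genes 16 and 0 of 27, and other kinetochore genes 11 and 1 of 31. The same test called 23% of all genes higher and 24% lower. Genes of the anaphase-promoting complex had 7 higher and 0 lower of 17, condensin 4 and 0 of 8, and cohesin and separase 4 and 3 of 16. Espl1, separase itself and the target of securin, rose by 1.42 ± 0.32 (edgeR adjusted p 0.00324). Mau2, a cohesin loader, fell by 0.71 on the log2 scale (adjusted p 0.00377). Genes of mitotic control had 8 higher and 4 lower of 23, among them Cks1b (2.25 ± 0.41, adjusted p 0.000967) and Cdkn1a (-2.11 ± 0.32, adjusted p 0.000254).

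**Figure D3:**
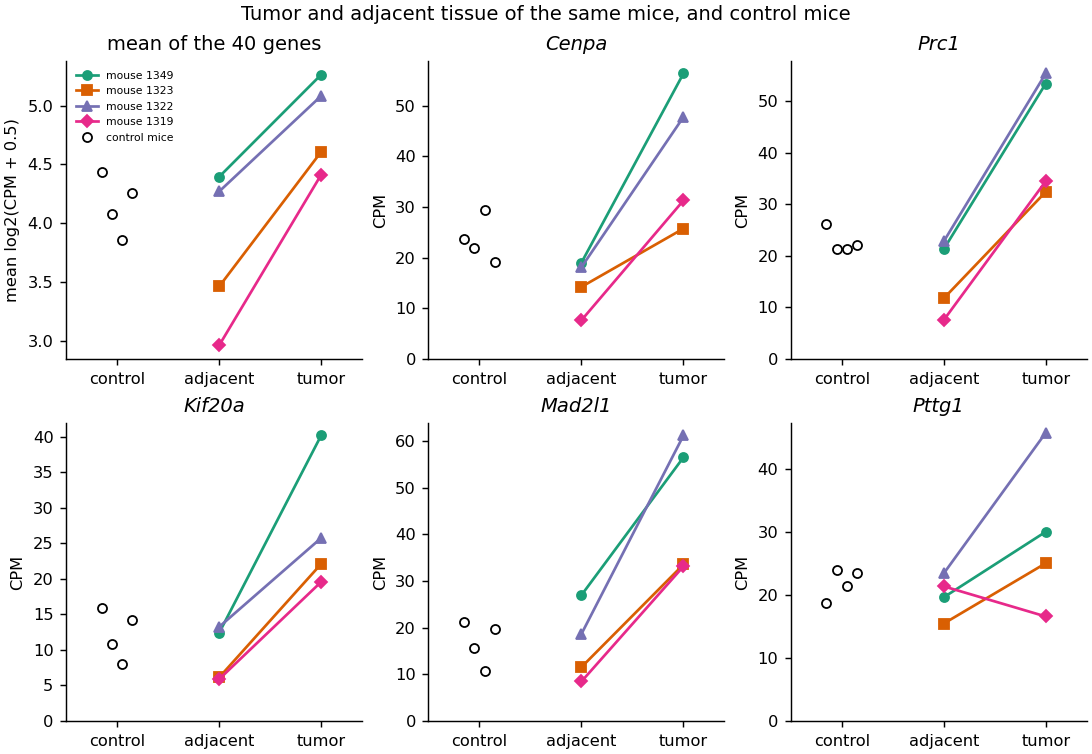
Adjacent and tumor values joined by mouse for the mean log2 CPM of all 40 members and for Cenpa, Prc1, Kif20a, Mad2l1 and Pttg1, with the 4 control mice as open points; the first vertical axis is log2(CPM + 0.5) and the others are CPM. Lines rise in all 4 mice except for Pttg1, which falls in mouse 1319.

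Fewer members were called between tumors and the tissue of control mice. Of the 40 members 12 were called higher (30% against 28.6% of all genes, so near that background) and 0 lower (against 26.1%). DESeq2 called 16 higher (against 25.2% of all genes), and every tumor was above every control for 12 members, against 27.5% of all genes. All 40 log2 fold changes were positive, with a median of 0.69 against 0.07 over all genes. Tumor, adjacent and control libraries enter all 3 tissue comparisons in pairs, so these results share samples.

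Mad2l1 had 21.3, 15.7, 10.7 and 19.7 CPM in control mice 1315, 1316, 1320 and 1321, all below the tumors given above (1.36 ± 0.36, edgeR adjusted p 0.00614). Incenp, the scaffold of the passenger complex, had 25.6, 22.3, 34.8 and 23.9 CPM in controls and 53.8, 40.01, 54.4 and 35.6 in tumors of mice 1349, 1323, 1322 and 1319 (0.86 ± 0.27, adjusted p 0.0171). Kif20a had 15.9, 10.8, 8.03 and 14.25 CPM in controls (1.05 ± 0.33, adjusted p 0.0179). In these 3 genes each tumor exceeded each control, but control 1320 had only 331 reads on all 40 members.

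Tpx2 had 21.5, 20.2, 5.35 and 20.4 CPM in controls (1.06 ± 0.34, edgeR adjusted p 0.0199), with control 1320 far below the rest. Prc1 had 26.2, 21.4, 21.4 and 22.2 CPM in controls (0.93 ± 0.32, adjusted p 0.0268). Pttg1 had 18.75, 24.0, 21.4 and 23.5 CPM in controls, within the range of the tumors, and was not called (0.42 ± 0.27, adjusted p 0.206, and 0.0428 without the tumor of mouse 1319). Mki67 at 0.42 ± 0.26 was not called either (adjusted p 0.185). The Pttg1 value of control 1320 rests on 8 reads.

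The count of 12 depended on single libraries. It was 2 without control 1316, 3 without control 1321, 5 without control 1315 and 7 without control 1320. It was 4 without the tumor of mouse 1322 and 2 without that of 1349. In the other pathway lists S phase genes had 20 higher and 1 lower of 30, other kinetochore genes 10 and 1 of 31, the anaphase-promoting complex 9 and 2 of 17, and other spindle and cytokinesis genes 7 and 0 of 27. Condensin had 3 and 0 of 8, mitotic control 3 and 5 of 23, and cohesin and separase 1 and 3 of 16. Among all genes 28.6% were called higher and 26.1% lower in this comparison.

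Between adjacent tissue of H2B/p53dIEC mice and control tissue no member passed the test. edgeR called 0 of 40 higher (0.792% of all genes) and 0 lower (0.277%), and DESeq2 called 0 in each direction (3.63% of all genes higher and 1.45% lower). At an unadjusted p under 0.05 the count was 0 higher (against 10.6% of all genes) and 1 lower (2.5% of the members, against 6.88%). The lower one was Hmmr, a spindle protein (-0.99 ± 0.37, adjusted p 0.193). It had 6.79, 3.93, 7.44 and 2.115 CPM in adjacent tissue, in the mouse order above, and 13.4, 7.94, 5.35 and 10.6 in controls, and the groups overlapped.

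In this comparison 38 members were negative, with a median of -0.35. The next smallest p-values belonged to Ect2 (-0.90 ± 0.43, adjusted p 0.303), Bub1 (-0.94 ± 0.45, adjusted p 0.309), Cenpa (-0.61 ± 0.31, adjusted p 0.331) and Mki67 (-0.44 ± 0.26, adjusted p 0.41), by edgeR. Ect2 had 23.55, 7.97, 16.2 and 4.83 CPM in adjacent tissue and 32.5, 16.4, 18.7 and 27.5 in controls. Bub1, a checkpoint kinase, had 8.63, 2.52, 7.78 and 2.30 CPM against 10.6, 7.60, 18.7 and 9.35. Mki67 had 91.2, 45.7, 82.05 and 40.5 CPM against 99.95, 80.1, 80.3 and 88.8. In these 3 genes the groups overlapped, and mouse 1319 had the lowest value. Cenpa had 23.6, 21.9, 29.4 and 19.2 CPM in controls, all above the 4 adjacent values. Pttg1 was at -0.14 ± 0.27 (adjusted p 0.841). None of the 7 pathway lists held a called gene, against 0.792% of all genes called higher and 0.277% lower. The median moved with single libraries, to -0.23 without adjacent 1323, -0.13 without adjacent 1319, -0.54 without adjacent 1322 and -0.59 without adjacent 1349.

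In H2BdIEC organoids Pttg1 fell while no other member passed the test. It was called lower at 3.64-fold less than control (log2 fold change -1.86 ± 0.12, edgeR adjusted p 3.46e-06). The levels were 33.9, 37.5 and 35.9 CPM in controls A, B and C and 8.875, 8.71 and 11.4 in H2BdIEC A, B and C. The groups were far apart, with the highest H2BdIEC library below the lowest control. These H2BdIEC levels rest on 50, 115 and 173 reads. Leaving out any 1 library gave -2.03 to -1.77, and DESeq2 called Pttg1 lower as well (the sole member, against 2.65% of all genes).

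The 39 other members had values from -0.20 to 0.30 and a median of -0.02. Of the 40, 1 was called lower (2.5% against 1.97% of all genes) and 0 higher (against 2.08%), and at an unadjusted p under 0.05 there were 3 in each direction (7.5%, against 9.62% of all genes higher and 9.99% lower). All libraries of H2BdIEC lay above all controls for 4 members (11.4% of all genes) and below for 3 (10.6%). Without H2BdIEC A, the shallow library, 3 members were called lower.

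Cenpa had 98.9, 89.05 and 95.7 CPM in controls and 82.0, 81.0 and 84.0 in H2BdIEC (-0.20 ± 0.07, edgeR adjusted p 0.122). Ndc80 had 22.8, 20.5 and 20.1 CPM against 29.3, 24.85 and 24.6 (0.30 ± 0.10, adjusted p 0.123). Neither pair of groups overlapped, and neither gene was called. Ect2, which activates the contractile ring, had 110.2, 114 and 119 CPM in controls and 158.5, 127 and 122 in H2BdIEC (0.24 ± 0.09, adjusted p 0.172). Mad2l1 had 89.96, 80.6 and 73.9 CPM against 103.5, 90.98 and 88.1 (0.20 ± 0.09, adjusted p 0.214). Prc1 had 133, 129 and 130 CPM against 132, 107 and 111 (-0.17 ± 0.08, adjusted p 0.249). In all 3 genes H2BdIEC A was the highest of its group, and the groups overlapped for Mad2l1 and Prc1. Cdc20 and Ube2c, the other members of the anaphase switch, were at -0.09 ± 0.09 and -0.14 ± 0.09 and not called. Relative to the mean of the 39 others, log2 Pttg1 stood at -1.45, -1.22 and -1.31 in controls and at -3.37, -3.28 and -2.90 in H2BdIEC, so the distance within each library did not overlap between groups.

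Of the 7 pathway lists, 5 held no called gene in this comparison, the exceptions being Ckap2, a spindle protein (0.47 ± 0.11, edgeR adjusted p 0.0355), and Gtse1, a partner of p53 and microtubules (0.52 ± 0.10, adjusted p 0.00951), both higher. Espl1, the protease that securin holds, was at -0.19 ± 0.08 (adjusted p 0.205). Around Pttg1, 6 other genes within 1 Mb could be tested. Of these Pwwp2a fell by 0.77 on the log2 scale (adjusted p 0.000109) and Ccnjl by 0.39 (adjusted p 0.0340), and the other 4 were not called. On all of chromosome 11, which also carries Trp53, 15 of 1216 genes were called higher and 42 lower, 4.69% together. Over all genes tested the shares were 2.08% higher and 1.97% lower. The crypt fit called 0 of 7 genes in the same window.

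The effect of H2BdIEC on Pttg1 differed between organoids and crypts. A fit over both sets gave a difference of -1.97 ± 0.19 between the log2 fold changes, organoid minus crypt (edgeR adjusted p 5.43e-05). It stayed between -2.13 and -1.90 with any 1 library left out. Of the 40 members 1 was called lower by this test (2.3% of all genes) and 3 higher (7.5% against 1.72%). DESeq2 called 1 lower (4.04% of all genes) and 5 higher (4.07%). The higher ones were Ndc80 (0.85 ± 0.18, adjusted p 0.0154), Nusap1 (0.90 ± 0.22, adjusted p 0.0326) and Mad2l1 (0.62 ± 0.17, adjusted p 0.0467), each with a negative value in crypts and a positive one in organoids. Nuf2 (0.61 ± 0.17, adjusted p 0.05365) and Ccna2 (0.76 ± 0.22, adjusted p 0.0674) were next and not called. The calls of Ndc80, Nusap1 and Mad2l1 were lost in 1, 10 and 11 of the 14 fits without 1 library. The 3 became 7 without crypt H2BdIEC 1 and 5 without crypt control 2. They became 2 without crypt control 4 or organoid H2BdIEC C, and 0 without organoid control B. They became 1 without crypt H2BdIEC 2, crypt H2BdIEC 4, crypt control 1, crypt control 3, organoid H2BdIEC A, organoid H2BdIEC B, organoid control A or organoid control C. Crypts and organoids form separate sets of count files, with 47729 and 52550 gene identifiers, and crypts are a mixture of cell types. The system and the library set therefore cannot be told apart here.

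**Figure D4:**
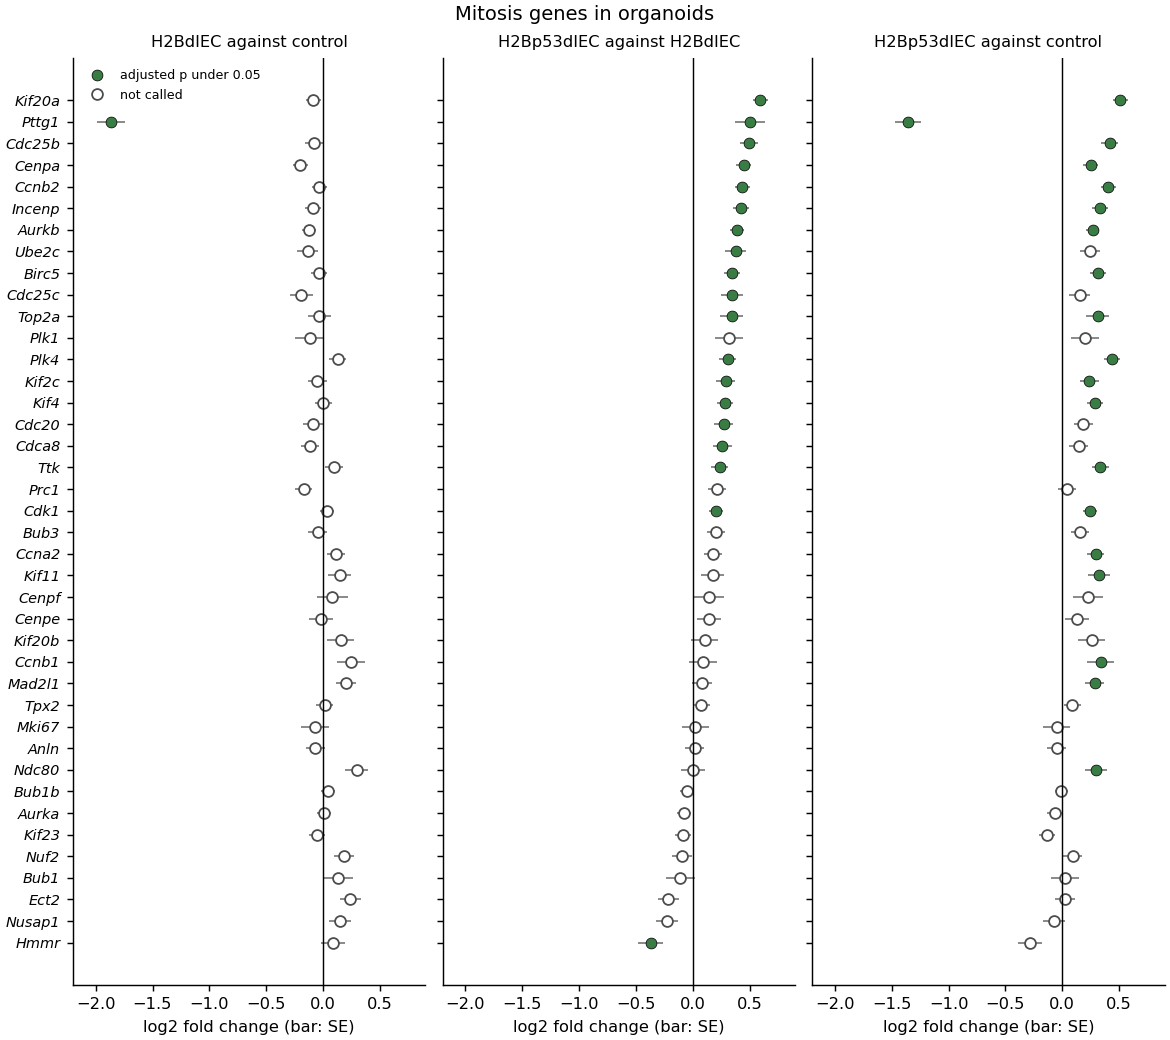
Log2 fold change ± SE of each of the 40 members in the 3 organoid comparisons, 1 panel each, ordered alike; filled points are called at adjusted p under 0.05. Pttg1 lies at -1.86 and -1.36 in the panels against control, apart from the other 39 members, which lie between -0.28 and 0.51 there.

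In H2Bp53dIEC organoids, 18 of 40 members were called higher than in H2BdIEC organoids (45% against 13.9% of all genes) and 1 lower (2.5% against 15.4%), and 21 did not pass the test. The median log2 fold change was 0.21. DESeq2 called 19 higher (12% of all genes) and 1 lower (14.1%). All H2Bp53dIEC libraries were above all H2BdIEC libraries for 21 members (23.0% of all genes) and below for 6 (22.7%). The changes were small, at most 1.51-fold.

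Kif20a had 85.7, 93.6 and 92.6 CPM in H2BdIEC A, B and C and 140 (library 1), 135 and 136 in H2Bp53dIEC 1, 2 and 3 (0.59 ± 0.07, edgeR adjusted p 6.36e-05). Cenpa had 82.0, 81.0 and 84.0 CPM against 115.5, 113 and 108 (0.45 ± 0.07, adjusted p 0.000444). Both pairs of groups were well apart. Ccnb2 had 76.7, 82.7 and 82.4 CPM against 114, 105 and 109 (0.44 ± 0.06, adjusted p 0.000453). Cdc25b, the phosphatase that activates cyclin-dependent kinase 1, had 74.0, 83.8 and 87.0 CPM against 118, 116 and 113 (0.50 ± 0.08, adjusted p 0.000565). Aurkb, the kinase of the passenger complex, had 88.2, 86.1 and 88.6 CPM against 118, 115 and 111 (0.39 ± 0.06, adjusted p 0.000704). None of these overlapped.

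Pttg1 had 8.875, 8.71 and 11.4 CPM in H2BdIEC and 12.5, 15.6 and 13.8 in H2Bp53dIEC, and was called higher (0.51 ± 0.13, edgeR adjusted p 0.0127). All 3 values were above those of H2BdIEC. The call was lost without H2BdIEC B or without H2Bp53dIEC 2. Hmmr was the member called lower, with 126, 94.7 and 91.85 CPM in H2BdIEC and 80.9, 75.9 and 82.9 in H2Bp53dIEC (-0.37 ± 0.11, adjusted p 0.0234). Its call was lost without any 1 of the H2Bp53dIEC libraries, and H2BdIEC A stood above the others of its group.

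All 4 passenger genes and all 3 anaphase genes were called higher. Birc5, also known as survivin, had 0.35 ± 0.07 and Incenp 0.42 ± 0.07, while Cdc20 had 0.27 ± 0.09 and Ube2c 0.38 ± 0.09. Of the entry genes 4 of 8 were called, of the spindle genes 3 of 7 were higher and 1 lower, and of the checkpoint, kinetochore and cytokinesis genes 1 each of 5, 5 and 6. Of the chromosome genes Top2a was called (0.34 ± 0.10) and Mki67 was not (0.02 ± 0.12). Kif20a was the sole cytokinesis gene called, and Ndc80 had equal means of 26.2 and 25.9 CPM within their error.

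The count of 18 was 10 without H2BdIEC B, without H2Bp53dIEC 1 or without H2Bp53dIEC 3, 11 without H2Bp53dIEC 2 and 26 without H2BdIEC A. The count of 1 lower was 3 without H2BdIEC C and 0 without any 1 of the H2Bp53dIEC libraries. Summed stem cell markers were 3531.7 to 3633.9 CPM in H2Bp53dIEC, 2711.9 to 2930.1 in H2BdIEC and 2426.3 to 2766.3 in controls. Within this sum Olfm4 had a mean of 879.7 CPM in H2Bp53dIEC against 292.1 in H2BdIEC. Slc12a2, at 1347.4 against 1458.4, was the sole marker of the list with a lower mean. Their part in the result was not tested.

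In the wider pathway, S phase genes had 19 higher and 1 lower of 30 in H2Bp53dIEC against H2BdIEC, led by Rrm2 and Mcm4, and other kinetochore genes 14 and 0 of 31. The test called 13.9% of all genes higher and 15.4% lower. Other spindle and cytokinesis genes had 11 and 1 of 27, the lower one being Ckap2 (-0.67 ± 0.11, edgeR adjusted p 0.000982). Condensin had 5 and 1 of 8, the anaphase-promoting complex 4 and 0 of 17, and cohesin and separase 2 and 2 of 16, with Espl1 at 0.56 ± 0.08 (adjusted p 0.00031) and Cdca5, which protects cohesin, at 0.51 ± 0.09. Mitotic control had 10 and 4 of 23. Cdkn1a fell by 2.16 on the log2 scale there (adjusted p 3.75e-08). Of the members with a matched promoter, 10 of the 14 called higher held TTTGAA, and 13 of the 19 not called did so. The same numbers, 10 of 14 and 13 of 19, held for CCAAT.

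Compared with the control organoids, which are also the controls of the H2BdIEC comparison above, H2Bp53dIEC organoids had 18 members called higher (45% against 16.7% of all genes) and 1 lower, Pttg1 (2.5% against 16.6%), with a median of 0.23. DESeq2 gave the same counts, 18 and 1, against 13.3% and 13.9% of all genes. All H2Bp53dIEC libraries were above all controls for 27 members (27.2% of all genes) and below for 3 (27.3%). Pttg1 had 12.5, 15.6 and 13.8 CPM against 33.9, 37.5 and 35.9, 2.56-fold less (-1.36 ± 0.11, edgeR adjusted p 4.36e-06). Its groups did not overlap, and the value lay between -1.45 and -1.28 with any 1 library left out.

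Kif20a had 101 (control A), 91.9 and 96.0 CPM in controls, below the 3 H2Bp53dIEC values above (0.51 ± 0.07, edgeR adjusted p 0.000124). Ccnb2 had 83.1, 81.2 and 83.4 CPM in controls (0.41 ± 0.06, adjusted p 0.000468). Plk4, the kinase that starts centriole duplication, had 51.0, 50.3 and 50.7 CPM in controls and 66.5, 68.5 and 70.85 in H2Bp53dIEC (0.44 ± 0.07, adjusted p 0.000726). All 3 were higher in every H2Bp53dIEC library. Cdc25b had 92.2, 82.0 and 85.7 CPM in controls (0.42 ± 0.07, adjusted p 0.00111), and Incenp had 107.8, 102.4 and 106.8 against 139.6, 132.0 and 127.6 (0.33 ± 0.07, adjusted p 0.00306).

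By role, 5 of 8 entry genes, 3 of 4 passenger genes, 2 of 5 checkpoint genes, 2 of 5 kinetochore genes and 4 of 7 spindle genes were called higher, with 1 of 6 cytokinesis genes and 1 of 2 chromosome genes. Top2a had 595, 573 and 571 CPM in controls and 722, 703 and 732 in H2Bp53dIEC (0.31 ± 0.10, edgeR adjusted p 0.0275), and its call was lost without any H2Bp53dIEC library or without control B or C. Mki67 was at -0.05 ± 0.12. The count of 18 higher was 10 without control B, 11 without H2Bp53dIEC 2 or 3, and 12 without H2Bp53dIEC 1. It was 24 in a fit of these 2 groups alone. The count of 1 lower was 2 with no filter on low counts, in a fit of these 2 groups alone, without H2BdIEC A, without H2BdIEC C and without control C.

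S phase genes had 24 higher and 0 lower of 30 in this comparison, other kinetochore genes 12 and 0 of 31, other spindle and cytokinesis genes 8 and 0 of 27, and mitotic control 8 and 3 of 23. Cohesin and separase had 5 and 1 of 16, condensin 4 and 0 of 8, and the anaphase-promoting complex 3 and 0 of 17. Over all genes 16.7% were called higher and 16.6% lower. Near Pttg1, 3 of 6 tested genes were lower (Pwwp2a, Ccnjl and Atp10b) and 0 higher.

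**Figure D5:**
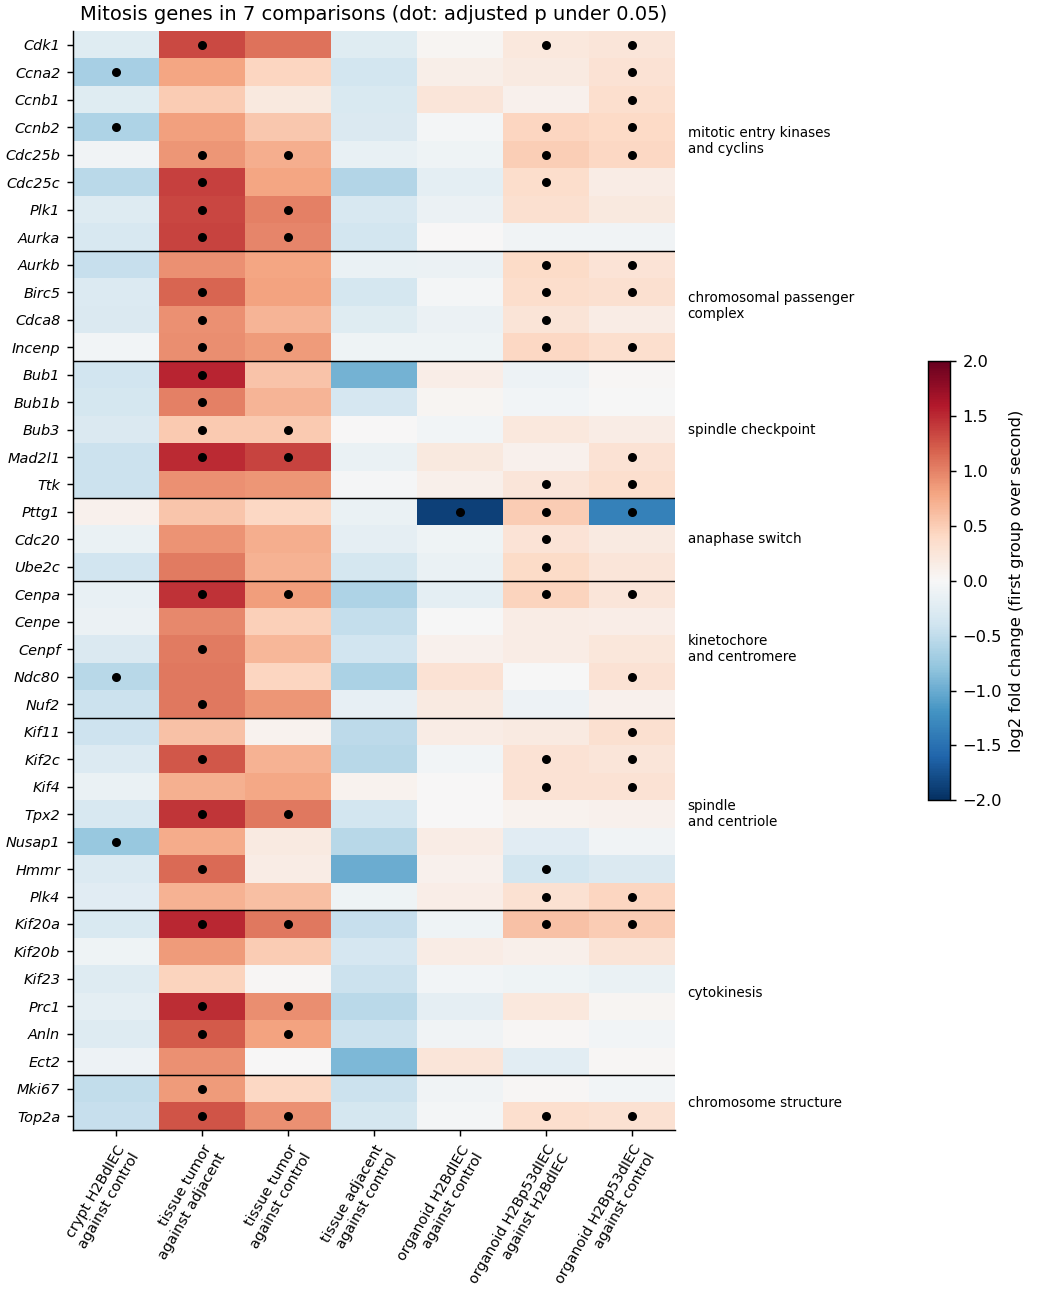
Log2 fold change of each of the 40 members (vertical axis, grouped by role) in the 7 comparisons (horizontal axis), with dots on calls at adjusted p under 0.05. Tumors against adjacent tissue carry 23 dots and adjacent tissue against control none, and Pttg1 is the sole dot for H2BdIEC against control organoids.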

How the data were processed

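The deposited files hold whole-number counts per Ensembl gene, 1 file per library, made by the authors from strand-specific libraries (TruSeq stranded mRNA kit, 500 ng RNA, per the labels' protocols). HTSeq, TopHat2 2.0.14, Trimmomatic 0.36 and cutadapt 1.5 and 1.9 with build GRCm38 are named in the submitters' processing notes; the strand setting of the counting is not given in the sources used here. Identifiers were matched to GENCODE M21 symbols (47310 of 47729 in crypts, 49326 of 49585 in tissue, 52403 of 52550 in organoids).

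Each set was fitted by itself with edgeR 4.0.16 (R 4.3.3): filterByExpr, TMM factors, robust quasi-likelihood F test, Benjamini-Hochberg adjustment over all genes tested, calls at adjusted p under 0.05. The SE is the log2 fold change over the square root of F. CPM are TMM-scaled, log values use a pseudocount of 0.5, and FPKM divides by GENCODE exon length. A fit over crypts with control and H2BdIEC organoids tested the difference between their fold changes. Total counts per library, given in the results, limit the precision, and Pttg1 in the shallowest libraries rests on few reads. No 2 libraries had identical counts.

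Replicates follow the labels, or accession order in crypts. Tumor and adjacent libraries share mice by their numbers. Deviations of the same mouse correlated at 0.144, -0.178, 0.124 and 0.060 over genes, and those of different mice reached 0.184. The block was set by the mouse numbers and not by these correlations. Alternatives were DESeq2 1.42.0, 2 other scalings, no filter, a fit of the compared groups alone, the replicate block and leaving out each library. On simulated counts the fit recovered 99 of 100 genes changed by 1 log2 unit in crypts, 100 in tissue and 99 in organoids. False calls numbered 10, 4 and 16 in the same order. The simulation gave every gene in every set the same fixed spread between replicates. It therefore checks the fit and does not give the power at the spread of these libraries.

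The members and all gene lists were chosen with earlier results of these data known. In each comparison within a set, Pttg1 and the 5 members with the smallest p are given with every library's value, fold change and p (fold differences alone between organoids and crypts), each pathway list gives its counts and at most its 2 genes of smallest p, and Hmmr, Mki67, Top2a, Espl1, Birc5 and others outside that rule were picked after their values were seen.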

Additional observations from a re-analysis of the deposited data

Results flagged for a closer look

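The effect of H2BdIEC differed between organoids and crypts for 4 of the 40 mitosis genes, by the edgeR test of the difference itself. The difference in log2 fold change, organoid minus crypt, was -1.97 for Pttg1 (adjusted p 5.43e-05), 0.847 for Ndc80 (adjusted p 0.0154), 0.9016 for Nusap1 (adjusted p 0.0326) and 0.6165 for Mad2l1 (adjusted p 0.0467). With organoid control B left out, 0 members were called higher and 1 lower. The system and the library set cannot be told apart in this test.

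In the tissue controls, Tpx2 of mouse 1320 lay far from the 3 other control mice, at 2.549 on the log2(CPM + 0.5) scale, and its gap to the nearest was 0.955 of the whole range of the group. This library had 401365 counts in all. In this library 8 reads of Pttg1 made 21.41 CPM, so Tpx2 at 5.352 CPM rests on fewer reads. It was the sole such library among 48 sets of values examined, and chance alone sets apart about 1 in 20. Those sets did not take in every member. In the same library Cenpe was low, at 2.676 CPM against 14.66 to 15.99 in the other controls. Ndc80 was high there, at 16.06 CPM against 5.845 to 8.313. The members set apart in either direction were not counted.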

How the results depend on the processing

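Of the calls counted, the 4 members lower in H2BdIEC crypts became 12 with DESeq2 and 10 without the filter on low counts, and ranged from 0 to 9 with 1 library left out. The 12 higher in tumors against controls ranged from 2 to 17. The 1 lower in H2BdIEC organoids ranged from 1 to 3. For H2Bp53dIEC against H2BdIEC the 18 higher ranged from 10 to 26 and the 1 lower from 0 to 3. For H2Bp53dIEC against control the 18 higher ranged from 10 to 24, and the 1 lower from 1 to 2, with 2 both without the filter and in a fit of the 2 groups alone. The 4 that differed between organoids and crypts ranged from 1 to 8. The cause was not tested. No other count of called members moved by over 1.5 times under the alternatives run, and the 23 higher in tumors against adjacent tissue ranged from 16 to 34. Pttg1 stayed lower in both organoid comparisons with control under every alternative run.

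The replicate block by mouse gave 34 members higher in tumors against adjacent tissue. In organoids, deviations of libraries with the same letter correlated at 0.0016, -0.212 and 0.112. These values do not settle whether letters A to C pair the libraries. The replicate block left 1 member lower. No organoid H2Bp53dIEC library shares a letter, so no paired analysis was possible there. Tissue control 1320 and organoid H2BdIEC A are the shallowest of their sets, and small differences of low members were not detectable at that depth.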
